A study of Mus musculus with 6 samples.

Results

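The Ascl and Id genes encode helix-loop-helix transcription regulators, and 7 of them, Ascl2, Ascl3, Ascl4, Id1, Id2, Id3 and Id4, were followed in 2 sorted populations of neonatal prostate cells. They were taken as every non-control probe that the array design names after one of these genes, which gave 7 probes of 55681, 1 probe and 1 spot for each gene, or 7 of 21727 genes with a RefSeq symbol. The members were chosen with the contrast between the populations in view, so their differences are given as a description, with no test. Expression was measured on 6 single-colour arrays, 3 independent samples per population.

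Both populations came from untreated 6-day-old male FVB/N mice carrying the Tg 11.5kb-GFP transgene, in which the s-SHIP promoter drives GFP. Digested prostates were sorted as LSC cells, that is negative for the lineage antigens of red cells, endothelium and leukocytes and positive for Sca-1 and CD49f, and then as LSC GFP+ and LSC GFP- cells, so that GFP is the only gate that parts the groups. The number of animals behind a sample was not given in the sources used here, and p-values measure the spread between these samples. The RNA was amplified before labelling. Values are given as log2 signals relative to the array's own 75th percentile, which is 0 on this scale. Log2 values of different probes cannot be set against each other.

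Basic helix-loop-helix factors bind DNA as pairs. The Ascl proteins pair with the widely expressed E proteins Tcf3, Tcf4 and Tcf12 and bind E-boxes, short sites spelled CANNTG. The Id proteins have the helix-loop-helix but no basic region, so a pair that includes one does not bind DNA, and they are known as inhibitors of the E proteins and as classical targets of BMP signalling through Smad proteins.

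The sequence just before the start of transcription is shown for the member that differed most between the populations, Ascl4, and for Id2, Id3 and Id4, of which the first pair moved together from array to array and the last did not. Each window holds the 250 bases before the start in RefSeq, build GRCm38.p6, read 5′ to 3′ on the strand of the gene, with CANNTG and GGCGCC, a GC-rich Smad element known from BMP-responsive promoters, in capitals. Both motifs read the same on either strand, and a match of one can share a base with a match of the other.
Ascl4 (chr10:85927152-85927401, plus strand): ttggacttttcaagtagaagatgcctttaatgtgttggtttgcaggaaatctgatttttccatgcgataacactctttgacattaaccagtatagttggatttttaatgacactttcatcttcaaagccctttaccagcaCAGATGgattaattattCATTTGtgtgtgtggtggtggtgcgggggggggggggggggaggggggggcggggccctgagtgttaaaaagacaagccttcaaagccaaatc
Id2 (chr12:25096093-25096342, minus strand): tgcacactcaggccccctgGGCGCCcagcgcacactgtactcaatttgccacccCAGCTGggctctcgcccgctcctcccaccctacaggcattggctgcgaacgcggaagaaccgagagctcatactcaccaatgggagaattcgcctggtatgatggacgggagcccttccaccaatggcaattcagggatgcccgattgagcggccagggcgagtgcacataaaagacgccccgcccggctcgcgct
Id3 (chr4:136143572-136143821, plus strand): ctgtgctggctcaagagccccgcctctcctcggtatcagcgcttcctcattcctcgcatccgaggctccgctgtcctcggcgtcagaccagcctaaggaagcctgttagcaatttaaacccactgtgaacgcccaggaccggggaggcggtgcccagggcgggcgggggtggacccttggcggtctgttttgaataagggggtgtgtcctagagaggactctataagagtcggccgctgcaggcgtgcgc
Id4 (chr13:48260866-48261115, plus strand): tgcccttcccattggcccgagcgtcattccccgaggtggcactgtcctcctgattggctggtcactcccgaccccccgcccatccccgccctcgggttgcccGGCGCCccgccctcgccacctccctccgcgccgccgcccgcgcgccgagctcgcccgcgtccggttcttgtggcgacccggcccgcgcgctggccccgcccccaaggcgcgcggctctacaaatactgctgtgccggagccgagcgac

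The Ascl4 window held 2 matches to CANNTG, the Id2 window 1, and the Id3 and Id4 windows 0. GGCGCC was found 1 time each in the Id2 and Id4 windows and 0 times in those of Ascl4 and Id3. In the same window of 32851 RefSeq promoters, 66.2% held CANNTG and 9.59% held GGCGCC. The windows of Ascl2, with 2 matches to CANNTG, and of Ascl3, with 1, held no GGCGCC. G and C made up 45.2% of the bases before Ascl4, 34.8% before Ascl3, and 62.8% to 75.6% before the other 4. The Id1 promoter was not used here.

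The measurement of each gene rests on one probe of 60 bases. The first 30 bases of the probes that the values below rest on are given to identify them, with no part marked.
Ascl4 probe: tctcactcattccttccaattgggaaatgc
Id1 probe: attgttttacaatagttctatgggggtgag
Id2 probe: tgagtgaaccttgtggactctttaattaga
Id3 probe: tccgcatctcccgatccagacagctgagct
Id4 probe: tgctaagtagaagagcaatcgtgaatccaa

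In the coordinates of the array design, build mm9, the Ascl4 probe lies at chr10:85392047-85392106 and the Id1 probe at chr2:152563083-152563142, both on the plus strand. The Id2 probe lies at chr12:25778904-25778963 on the minus strand and the Id4 probe at chr13:48358668-48358727 on the plus strand. The Id3 probe, at chr4:135700075-135700249 on the plus strand, covers 175 bases of genome with its 60 bases and so crosses a splice junction. The probes of Ascl2, at chr7:150152734-150152793, and Ascl3, at chr7:116870981-116871040, are on the minus strand.

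Ascl4, a member of the family described in developing skin, was higher on every LSC GFP+ array than on any LSC GFP- array. Its log2 values were -0.54, -0.71 and -1.06 in LSC GFP+ replicates 1, 2 and 3, and -2.10, -2.63 and -2.69 in LSC GFP- replicates 1, 2 and 3. The probe was well above background on all 6 arrays, at processed signals of 198 to 303 in LSC GFP+ cells and 65.1 to 93.6 in LSC GFP- cells. The LSC GFP+ mean of -0.77 ± 0.26 stood against an LSC GFP- mean of -2.47 ± 0.33 (SD, n = 3 each), a gap of 1.70 on the log2 scale with a limma standard error of 0.24, or 3.26-fold. In sorted bulk samples more cells with a transcript and more transcript per cell cannot be told apart.

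Ascl2, the factor that sets the stem cell programme of the intestinal crypt, was dim and did not part the populations. Its log2 values were -3.06, -4.25 and -3.59 in LSC GFP+ cells and -3.74, -3.90 and -3.39 in LSC GFP- cells, and the LSC GFP+ values reached both above and below all those of LSC GFP- cells. Its signal passed the background mark in 2 of 3 LSC GFP+ samples, with replicate 2 the exception, and in 3 of 3 LSC GFP- samples. The difference of means was 0.04 with a standard error of 0.32, and it was -0.24 without LSC GFP+ replicate 1 and -0.07 without LSC GFP- replicate 2. Ascl3, known from ionocyte-like cells of salivary ducts, did not pass the background mark in any sample, with processed signals of 4.24 to 5.38 in LSC GFP+ cells and 3.57 to 10.2 in LSC GFP- cells, so no fold is given.

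Id1, Id2 and Id3, the members most often linked to BMP signalling, had slightly higher means in LSC GFP+ cells, with populations that overlapped. Id1 was at 2.58, 2.56 and 2.98 in LSC GFP+ replicates 1, 2 and 3 and at 2.36, 2.21 and 2.61 in LSC GFP- replicates 1, 2 and 3, a difference of means of 0.31 (standard error 0.22). Only LSC GFP- replicate 3 reached into the range of the LSC GFP+ arrays. Id2 was at 2.14, 2.16 and 2.40 in LSC GFP+ cells and at 1.96, 1.9996 and 2.23 in LSC GFP- cells, a difference of 0.17 (standard error 0.19). Here too replicate 3 of LSC GFP- cells was the array that overlapped.

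Id3 showed the same order with a wider spread. Its log2 values were 1.79, 1.84 and 2.52 in LSC GFP+ cells and 1.71, 1.67 and 2.41 in LSC GFP- cells. Replicate 3 was well above the other arrays in both populations, and the difference of means was 0.12 with a standard error of 0.30. Without LSC GFP+ replicate 3 the difference was -0.11 and without LSC GFP- replicate 2 it was -0.01, while without LSC GFP- replicate 3 it was 0.36.

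Id4, an Id protein of neural and mammary basal progenitors, ran the other way. It was at 0.43, 0.50 and 0.36 in LSC GFP+ cells and at 0.87, 0.54 and 0.86 in LSC GFP- cells. Every LSC GFP+ array was below every LSC GFP- array, although LSC GFP+ replicate 2 and LSC GFP- replicate 2 lay close together. The means were 0.43 ± 0.07 and 0.76 ± 0.19 (SD, n = 3 each), a difference of -0.33 with a standard error of 0.19.

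**Figure D1:**
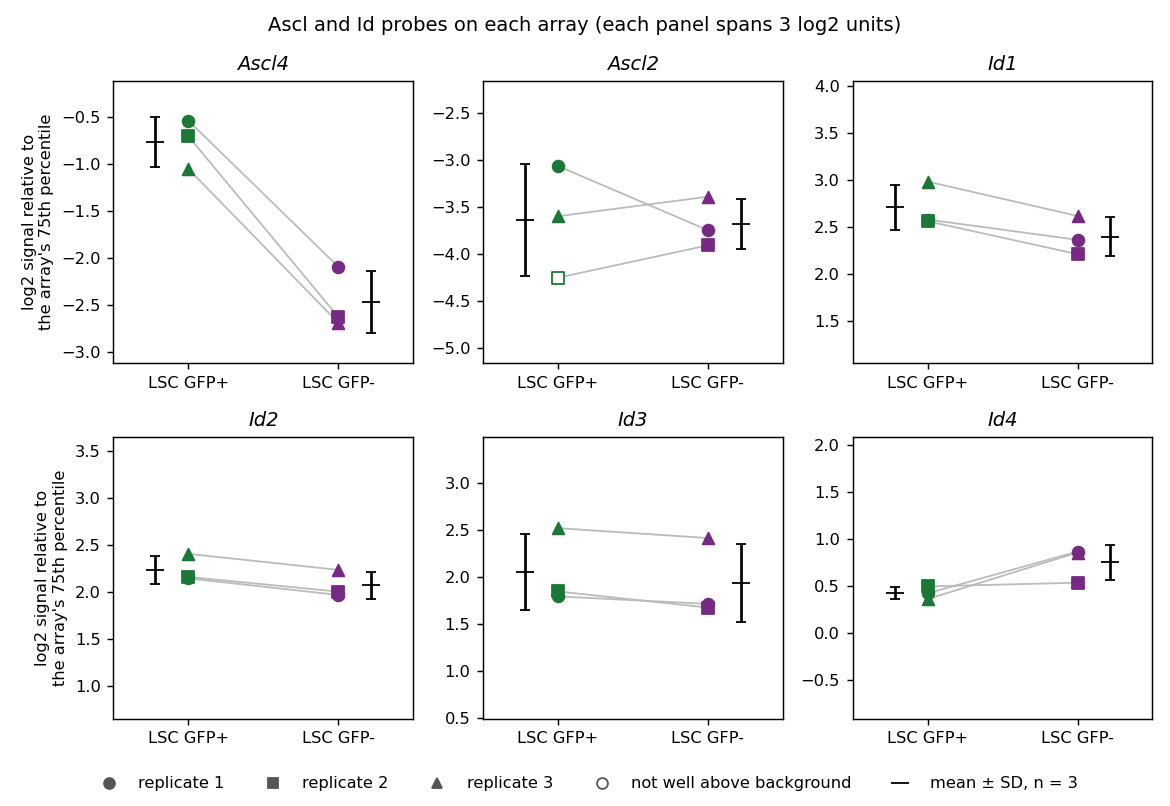
Log2 signal of 6 members relative to the 75th percentile of the array (vertical axis) in LSC GFP+ and LSC GFP- cells, 1 point per array, with grey lines linking arrays of the same replicate number and bars for the mean ± SD of 3 arrays. Ascl4 falls from means of -0.77 to -2.47 without overlap, Id1, Id2 and Id3 fall slightly along nearly parallel lines, and the open point of Ascl2 was not well above background.

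Of the 6 members that passed the filter on signal, Ascl4 was higher and Id4 lower in LSC GFP+ cells without overlap. Over all 37005 probes tested the populations did not overlap for 12.3%, and LSC GFP+ cells were the higher ones for 6.61%; since this contrast chose the members, nothing is read from their count. By limma's moderated test 7.90% of the probes had an unadjusted p under 0.05, 3.38% higher and 4.53% lower in LSC GFP+ cells, and 0.00270%, a single probe, had an adjusted one. A gene below is said to have risen or fallen where its brightest probe passed the unadjusted threshold, the one the study used, and every p printed is adjusted over all probes. The median difference over all probes tested was -0.0044. Ascl3 did not pass the filter.

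Samples of the same replicate number were taken as pairs here, although no shared sort or litter was stated. Within these pairs the small differences of Id1, Id2 and Id3 were even. LSC GFP+ minus LSC GFP- was 0.22, 0.35 and 0.37 for Id1 in replicates 1, 2 and 3, and 0.08, 0.17 and 0.11 for Id3. For Id2 it was 0.18, 0.16 and 0.17, with an SD over the pairs of 0.01. These differences were above 0 in each pair. The 3 genes share their arrays and were chosen with this contrast in view, so nothing is read from that count. For Id4 they were -0.44, -0.04 and -0.50, so replicate 2 showed almost none of the difference seen in the other pairs. Ascl4 differed by 1.55, 1.92 and 1.64, and the pairs of Ascl2 went both ways, at 0.68, -0.34 and -0.21.

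**Figure D2:**
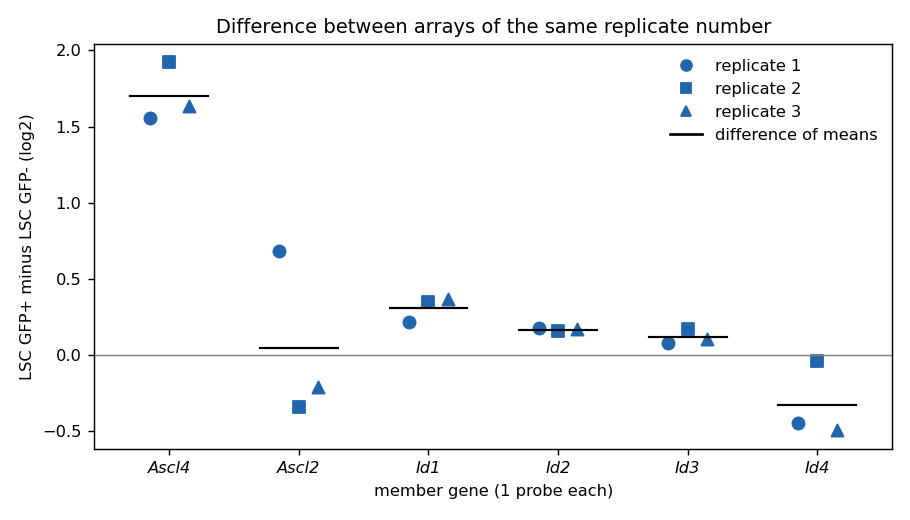
LSC GFP+ minus LSC GFP- in log2 (vertical axis) for 6 members, 1 point for each replicate number, with a black line at the difference of the means. The points of Id2 lie within 0.16 to 0.18 and those of Ascl4 within 1.55 to 1.92, whereas Ascl2 has points on both sides of 0.

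The spread within a population does not use the contrast between the populations. Taken as deviations from the population means, Id1, Id2 and Id3 rose and fell together over the 6 arrays, with Pearson r of 0.94 for Id1 and Id2, 0.97 for Id1 and Id3, and 0.99 for Id2 and Id3. The deviations of Id3 were -0.26, -0.21 and 0.47 in LSC GFP+ replicates 1, 2 and 3 and -0.22, -0.26 and 0.48 in LSC GFP- replicates 1, 2 and 3. The relation is that of one array per population against the rest, since replicate 3 was the highest for all 3 genes in both populations.

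Id4 did not follow, with r of 0.25, 0.05 and 0.16 to Id1, Id2 and Id3. Ascl4 tended the opposite way to the 3 genes, with r of -0.56, -0.80 and -0.72, and had an r of 0.46 to Id4. These correlations share their 6 arrays and are descriptions with no test. The pooled within-population SD was 0.41 for Id3, 0.30 for Ascl4, 0.22 for Id1, 0.15 for Id2 and 0.14 for Id4, where the median over 33845 probes above background on all 6 arrays was 0.30.

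The pattern of Id1, Id2 and Id3 was shared by many probes. Deviations correlated with those of Id3 at r over 0.9 for 15.0% of 33844 probes, with those of Id2 for 14.4% and with those of Id1 for 11.8%, but with those of Ascl4 for 1.45% and of Id4 for 0.576%. Replicate 3 was the highest array of both populations for 30.1% of probes, replicate 1 for 15.8% and replicate 2 for 8.99%. Both replicate 3 arrays also stood in row 2 of the slide and the other 4 in row 1. Arrays of the same replicate number stood in neighbouring columns of a row, so replicate number and place on the slide cannot be told apart. The summed linear level of the luminal epithelial markers was highest on the replicate 3 arrays. It was 280 against 201 and 231 in LSC GFP+ cells and 295 against 213 and 229 in LSC GFP- cells. The sums of the basal, sorting, BMP and Smad, and cell cycle inhibitor lists were also highest on replicate 3 in both populations. The sums of the remaining lists were not. A linear sum is weighted towards the brightest probes of a list, so its order over the arrays need not hold for the whole list. The part of the slide row and of these sums in the Id values was not tested.

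**Figure D3:**
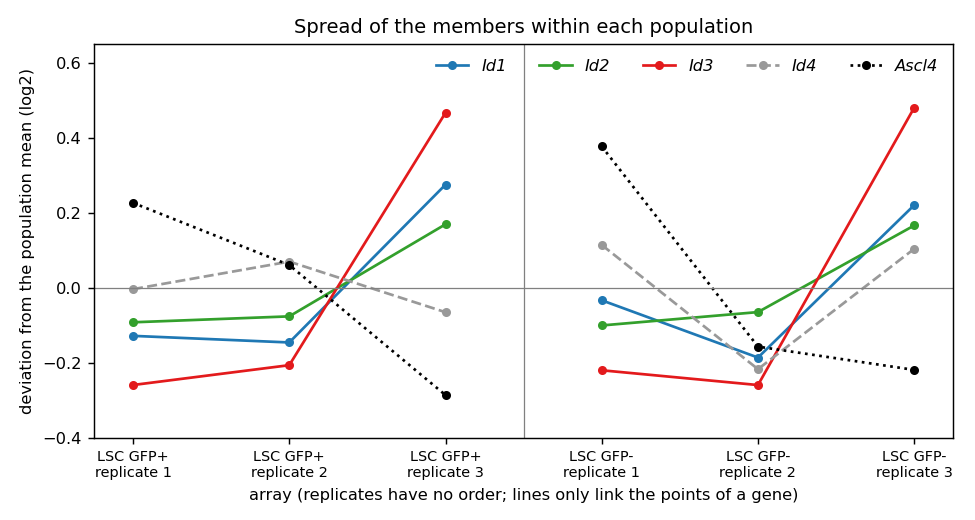
Deviation of 5 members from their population mean in log2 (vertical axis) on each array (horizontal axis), with lines linking the points of a gene within a population. Id1, Id2 and Id3 peak on replicate 3 of both populations, where Id3 reaches 0.47 and 0.48, while Ascl4 is at -0.29 and -0.22 there.

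The genes with a probe that ran most like a member were picked from 14358 genes by Pearson r. They were chosen by their log2 values over the 6 arrays, and so with the difference between the populations included. For Ascl4 these were Sh3bp5 (r = 0.998), Zfyve9 (0.996) and Cep68 (0.995). For Id1 they were Hspa8, a constitutive chaperone, Rnmt, an mRNA cap methyltransferase, and Rpl3, a ribosomal protein, at r of 0.997, 0.997 and 0.995. For Id2 they were Isca1, Med4 and Csl (0.998, 0.996 and 0.996), for Id3 Ncaph2, Pfn1 and Bud31 (each 0.998), and for Id4 Slc6a17, Ren2 and Il17rc (0.989, 0.988 and 0.984).

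The tested genes nearest to the members on the chromosome showed no difference that passed the unadjusted threshold. Rtcb, an RNA ligase gene beside Ascl4, had the largest difference at 0.48 (adjusted p = 0.788), and Prdm4 on the other side was at 0.12. Beside Id1, Id2 and Id3, H13 was at -0.06, Kidins220 at -0.02 and E2f2 at -0.26, and beside Ascl2 and Ascl3, Th was at -0.26, Tspan32 at 0.12, BC051019 at -0.13 and Tmem9b at -0.03. A330033J07Rik, a noncoding RNA gene that overlaps Id4, was at -0.07. Its populations overlapped where those of Id4 did not.

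The E proteins, the partners that Ascl and Id proteins compete for, had higher means in LSC GFP+ cells. Tcf4 rose by 0.67 ± 0.28 (log2 difference ± limma standard error, adjusted p = 0.610). Tcf12 differed by 0.46 ± 0.23 (adjusted p = 0.729) and missed the threshold, which it passed with the replicate number as a block (0.46) or without LSC GFP- replicate 3 (0.63). Tcf3 was at 0.14 ± 0.19 (adjusted p = 0.996). Tcf4 missed the threshold without any one of the arrays other than LSC GFP+ replicate 3, with differences of 0.46 to 0.76, and its populations overlapped. The summed linear level of the 3 genes was 5.71 to 6.35 in LSC GFP+ cells and 4.20 to 5.05 in LSC GFP- cells.

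Of 45 genes for E proteins and for other helix-loop-helix factors that pair with them, 44 were on the array and 24 were tested. Tcf4 rose in LSC GFP+ cells and 4 genes fell, 20.8% in all against 9.34% of all 15853 genes tested at their brightest probe (4.55% higher and 4.79% lower), and the median difference was -0.0768 against 0.0131 over all genes. Limma's adjusted p passed the threshold for 0 of the 24. Tcf21, a factor of mesenchymal progenitors, fell by 1.73 on the log2 scale (standard error 0.52, adjusted p = 0.350). Twist1, a mesenchymal factor, was not well above background on any LSC GFP+ array. In the main processing it was at least 1.41-fold lower there (adjusted p = 0.213). This bound was taken from the dimmest signals that count as above background. Scx, a tendon factor, was at -0.58 (adjusted p = 0.615) and Myog, a muscle factor, at -0.67 (adjusted p = 0.581).

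The calls of Scx and Myog depended on single arrays. Scx missed the threshold without any one of the arrays other than LSC GFP- replicate 2 (differences of -0.69 to -0.36), and Myog without LSC GFP+ replicate 2 or 3 or LSC GFP- replicate 1 or 3 (differences of -0.68 to -0.47). The list had 2 calls without LSC GFP+ replicate 2 or LSC GFP- replicate 1 and 3 without LSC GFP- replicate 3.

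Most smooth muscle markers were lower in LSC GFP+ cells, like Tcf21 and Twist1, while stromal markers went both ways. Of all genes tested at their brightest probe, 4.55% rose and 4.79% fell in LSC GFP+ cells. Of the smooth muscle markers, 7 of 8 tested fell in LSC GFP+ cells, and Lmod1 was not above background. Their summed linear level was 7.56 to 11.2 against 21.4 to 41.6 in LSC GFP- cells. Of the stromal markers, 5 of 11 fell, Col1a1, Col1a2, Col3a1, Lum and Pdgfra, and 3 rose, Dcn, Fbln1 and Fbln2, with summed levels of 35.6 to 40.9 and 34.9 to 76.6. LSC GFP- replicate 1 was the highest array for both sums. Without it the difference of Ascl4 was 1.89 and that of Id4 was -0.27, and Tcf21 and Twist1 stayed past the threshold. Leaving it out does not take away the marker difference. The other LSC GFP- arrays had smooth muscle sums of 21.4 and 24.6, still above every LSC GFP+ array. The part of these markers in the values of the helix-loop-helix genes was not tested.

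The sorted antigens were checked as well. Itga6, which encodes CD49f, and Ly6a, which encodes Sca-1, were well above background on every array. Of the lineage genes, Ptprc was above it on every array and Pecam1 on 2 of 3 LSC GFP+ and 3 of 3 LSC GFP- arrays. Of 11 basal epithelial markers tested, 7 rose in LSC GFP+ cells, among them Krt5 and Krt14, and 0 fell. Of all genes tested, 4.55% rose and 4.79% fell. The summed levels of the basal markers were 237 to 255 against 177 to 188, and Dsg3 was not above background. Of 10 luminal markers, 2 rose, among them Hoxb13, and Prom1 fell. Limma's unadjusted threshold passed 0 of 10 leukocyte, 0 of 9 glial and neuronal and 0 of 5 sorting markers. Among 8 endothelial markers it passed 1, Vwf, which fell, and among all genes 9.34%. Lyz2 was not above background.

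Among the BMP genes, whose signal Id genes are known to answer to, only some ligands and secreted antagonists passed the threshold. Those ligands rose and those antagonists fell in LSC GFP+ cells. Of 36 BMP and Smad genes, 28 were tested, 3 rose and 5 fell in LSC GFP+ cells, 28.6% against 9.34% of all genes, with a median difference of -0.0024. Limma's adjusted p passed the threshold for 0 of the 28. Parts of this pattern were already known from these arrays when the list was written, so the list is not independent evidence. Of the 28 differences, 14 were above 0. The tested ligands that did not pass went both ways, with Bmp3 at 0.41, Bmp6 at 0.12, Gdf5 at -0.06, Gdf7 at -0.16 and Bmp4 at -0.50. So did the antagonists that did not pass, with Nbl1 at 0.21, Twsg1 at 3e-04, Chrd at -0.13 and Nog at -0.35. These genes were named after their values were seen.

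The 3 genes that rose were ligands. Bmp5 was 2.20 higher on the log2 scale (standard error 0.26, adjusted p = 0.0699) and passed the background mark in 3 of 3 LSC GFP+ and 1 of 3 LSC GFP- samples. Bmp7 rose by 0.77 (adjusted p = 0.332) and Bmp2 by 0.73 (adjusted p = 0.375). For each of the 3, all LSC GFP+ arrays were above all LSC GFP- arrays, as for 6.61% of all probes tested. The 3 were picked by their difference on these same arrays, so nothing is read from that count. Bmp2 and Bmp7 were above background on every array.

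Among the genes that fell, Fst, Sostdc1 and Chrdl1 encode secreted antagonists of BMP family ligands. Fst was at -1.98 (standard error 0.35, adjusted p = 0.125) and above background on 1 of 3 LSC GFP+ arrays, Sostdc1 at -1.38 (adjusted p = 0.170) and Chrdl1 at -0.88 (adjusted p = 0.410). The receptor gene Bmpr1b was at -0.91 (adjusted p = 0.408). Smad9, a BMP-regulated Smad, was not above background on any LSC GFP+ array. In the main processing it was at least 1.66-fold lower there (adjusted p = 0.129). Chrdl1 missed the threshold without LSC GFP+ replicate 2 (-0.79) or LSC GFP- replicate 1 (-0.58), and Bmpr1b without LSC GFP- replicate 2 (-0.81).

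Beside the ligands and antagonists, Smad1, Smad4 and Smad5 showed no change that passed the threshold. Smad9, which is also regulated by BMP, fell as given above. Smad1 was at -0.0051 ± 0.19, Smad4 at 0.04 ± 0.19 and Smad5 at 0.42 ± 0.19 (log2 difference ± standard error), the last with an adjusted p = 0.658 and populations that did not overlap. These 3 genes were named after their values were seen.

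Of 18 genes of the intestinal crypt stem cells in which Ascl2 acts, all were tested, 5 rose in LSC GFP+ cells and Prom1 fell, 33.3% against 9.34% of all genes, with a median difference of 0.1711. Smoc2, a matricellular protein, rose by 1.33 (adjusted p = 0.129), the receptor gene Lgr5 by 0.94 (adjusted p = 0.273) and Tnfrsf19 by 0.92 (adjusted p = 0.173). The E3 ligase genes Rnf43 and Znrf3 rose by 0.68 and 0.58 (adjusted p = 0.462 for both), and Prom1 fell by 0.53 (adjusted p = 0.590). Limma's adjusted p passed the threshold for 0 of the 18, and several of these genes were known to differ here when the list was written.

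Leaving out arrays touched the weaker of these calls. The list had 3 calls without LSC GFP+ replicate 2 or LSC GFP- replicate 1. Rnf43 missed the threshold without LSC GFP+ replicate 2 or LSC GFP- replicate 1 or 3 (differences of 0.56 to 0.64), and Znrf3 without those arrays or LSC GFP+ replicate 1 (differences of 0.47 to 0.58). Prom1 missed it without any one of the arrays other than LSC GFP+ replicate 3 (differences of -0.63 to -0.39).

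**Figure D4:**
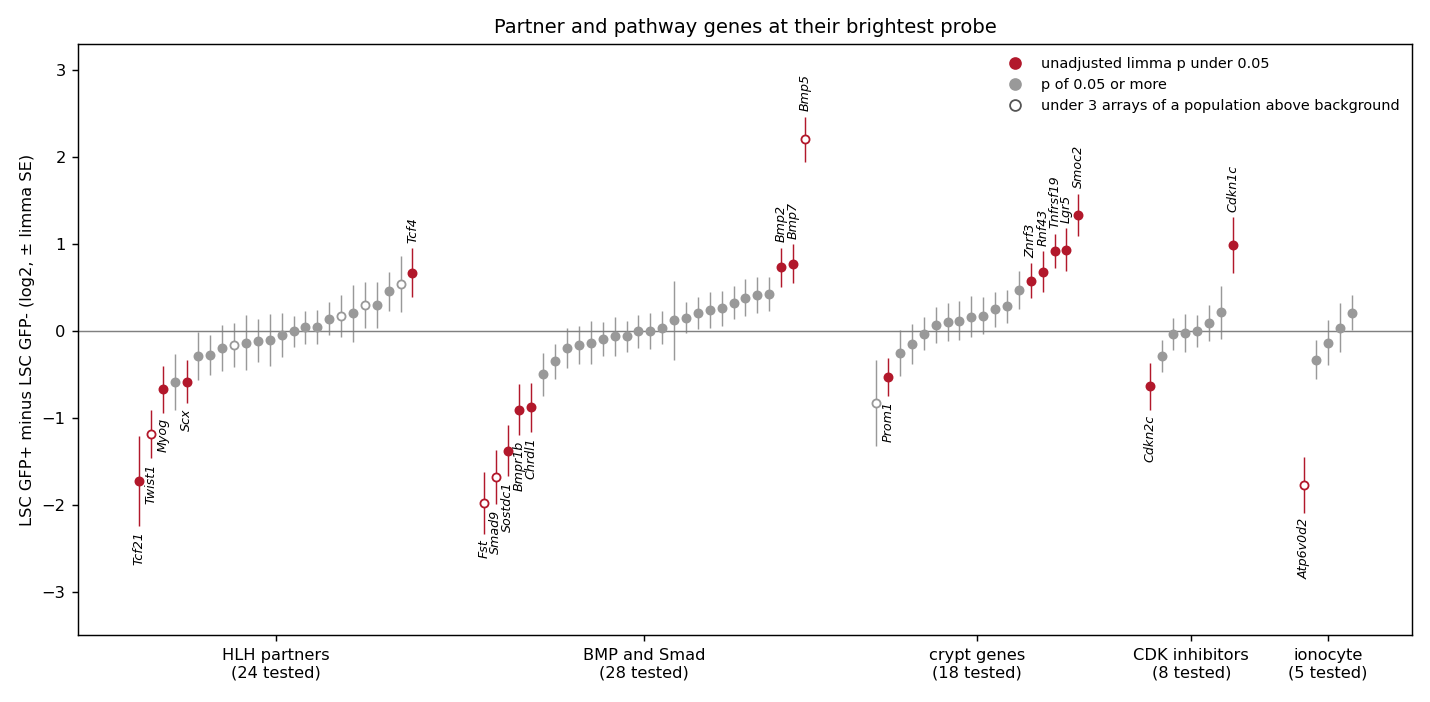
Difference LSC GFP+ minus LSC GFP- in log2 with limma's standard error (vertical axis) for each tested gene of 5 lists, sorted within a list, with genes at an unadjusted limma p under 0.05 in red and open points for genes above background on fewer than 3 arrays of a population. Tcf4 is the helix-loop-helix gene that rose, Bmp5 at 2.20 stands highest among the BMP genes, and 5 crypt genes lie between 0.58 and 1.33.

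Of the cell cycle inhibitors, whose genes E proteins and Id proteins are known to regulate, 8 of 10 were tested, Cdkn1c rose by 0.99 (adjusted p = 0.408) and Cdkn2c fell by 0.64 (adjusted p = 0.612), and limma's adjusted p passed for 0. The share called was 25% against 9.34% of all genes, and the median difference was -0.0112. Cdkn2c missed the threshold without any one of the arrays other than LSC GFP+ replicate 2 (differences of -0.72 to -0.43). Of 8 genes of the ionocytes in which Ascl3 is known, 5 were tested. Limma's unadjusted threshold passed for 1, or 20% against 9.34% of all genes, with 0 after adjustment. That gene, Atp6v0d2, a proton pump subunit also known from osteoclasts, was not above background in LSC GFP+ cells. In the main processing it was at least 2.33-fold lower there (adjusted p = 0.128). Cftr was not above background on any array.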

How the data were processed

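Expression was measured on 6 SurePrint G3 Mouse arrays, all of 1 slide and scan, so no batch could be compared. Per the file headers, Feature Extraction 11.0.1.1 made the deposited intensity values (the submitters' processing notes name 10.7.3.1), with background subtracted, a spatial trend removed, a substitute value for dim spots and no normalization between arrays. The table of the whole series holds the same signals rounded. Log2 signals were centred on the 75th percentile of their array, and outlier spots, 123 to 154 per array, were left out. Between 36656 and 42128 of 55681 probes were well above background and none was saturated. The number of arrays limits the precision.

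Probes that passed the scanner software's background mark throughout at least 1 population, 3 of 3 arrays, were fitted with limma 3.58.1 in R 4.3.3, two-sided, with Benjamini-Hochberg adjustment over 37005 probes. A gene was called at an unadjusted p under 0.05 at its brightest probe, following the methods' threshold. Symbols were updated for 26582 probes through GRCm38.p6. The fits were tested on simulated data.

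The members and lists (E proteins, helix-loop-helix partners, BMP and Smad genes, crypt genes, cell cycle inhibitors, ionocyte genes, and basal, luminal, sorting, stromal, smooth muscle, endothelial, leukocyte, and glial and neuronal markers) were chosen with earlier results of these data known. Named genes were every member, all E proteins, of the other lists at most the 8 called genes with the smallest p, the nearest gene on each side of a member, and the 3 genes most like each member; others are marked, and some genes of the lists are not reported here by name. Deviations of samples with the same number in their labels correlated at 0.43, 0.28 and 0.67 across probes, all above 0.1. Between different numbers r ran from -0.55 to 0.22, the highest for LSC GFP+ replicate 1 and LSC GFP- replicate 2. No shared sort or litter was stated, and arrays of the same number also stood in neighbouring columns of the slide. The main fit left the pairing out. With the replicate number as a block 5480 probes were called in place of 2925.

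The alternatives were normexp with an offset of 50, quantile and median scaling, the rounded values, 3 other filters, the methods' t-test, an intensity trend, each array left out, the replicate block and the average of a gene's probes.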

Additional observations from a re-analysis of the deposited data

How the results depend on the processing

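The difference of Ascl4 was 1.15 after normexp background correction and 1.59 to 1.89 when single arrays were left out. Leaving out single arrays gave differences of 0.17 to 0.42 for Id1, 0.08 to 0.25 for Id2, -0.11 to 0.36 for Id3, -0.44 to -0.27 for Id4 and -0.24 to 0.35 for Ascl2, and Id3 and Ascl2 changed sign under 2 of these each. None of the other settings changed the sign of a member's difference. Ascl2 had no value with the filter on all 6 arrays, Ascl3, below background throughout, was given none, and the mean over probes does not apply to members with 1 probe. Under the replicate block, that is with the samples paired by number, 5480 probes were called, 2495 higher and 2985 lower in LSC GFP+ cells, against 2925, and 0 after adjustment; the block moved the count of none of the lists by over 1.5 times. Leaving out single arrays gave 2283 to 4061 probes, with the highest count without LSC GFP+ replicate 1, and 2 to 7 helix-loop-helix partners, 7 to 11 BMP and Smad genes, 3 to 7 crypt genes and 1 to 2 cell cycle inhibitors. The helix-loop-helix partners called were 2 among probes above background on at least 1 array, 3 with no filter and 1 by the methods' t-test. The BMP and Smad genes called were 5 among probes above background on all 6 arrays, where 25 could be tested. The cell cycle inhibitors called were 1 under quantile normalization, under median scaling, with the filter of at least 1 array, with no filter and by the methods' t-test. By the methods' t-test Tcf4, Tcf21, Scx, Myog, Bmpr1b, Chrdl1, Cdkn1c and Cdkn2c missed the threshold. The causes were not tested. Scaling by the array median moved the median difference of all probes from -0.0044 to 0.0647. Values near background, such as those of Ascl2, Bmp5 and Fst, are limited by the signal over background. On the log2 scale normexp gave 0.92 for Bmp5 and -0.79 for Fst. It gave -0.37 for Twist1, -0.40 for Smad9 and -0.58 for Atp6v0d2, smaller falls than their bounds, which hold for the main processing only.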
